A study of Mus musculus with 16 samples.

Results

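The AP-1 (activator protein 1) genes of the Fos and Jun families, together with Atf3, were followed through a study of osmotic stress and Nrf2 in mIMCD3 cells, a mouse line from the inner medullary collecting duct of the kidney. The 8 genes were taken by symbol, Fos, Fosb, Fosl1, Fosl2, Jun, Junb, Jund and Atf3, out of 55367 gene symbols in the count files. All 8 passed the filter on low counts that left 19509 genes for testing. Wild-type (WT) cells received the solvent DMSO or 10 μM sulforaphane (SFN), an activator of the transcription factor Nrf2, for 5 h. RNA was collected from WT cells under isosmotic conditions, after 1 h of hyperosmotic stress (HS) in medium of 600 mOsm, and after 6 h of HS. Nrf2-/- cells, made by lentiviral CRISPR/Cas9 and antibiotic selection, received SFN for the same 5 h and were collected under isosmotic conditions and after 1 h of HS. Whether the Nrf2-/- cells were 1 clone or a pool is not given in the sources used here, and Nrf2-/- cells with DMSO were not analysed here, so genotype cannot be told apart from other differences between the cell populations. Each of the 8 groups held 2 libraries, 16 in all, with 34484296 to 50774875 counts. The study describes its RNA-seq replicates as biological, and the sources used here do not say what separated them, such as culture or day, so p-values measure the spread between these libraries.

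AP-1 is a dimer of basic leucine zipper (bZIP) proteins, in which Fos proteins need a Jun partner, whereas Jun proteins can also pair with each other and with members of the ATF family. Most of these genes are immediate-early genes, which growth factors, stress and MAP kinases switch on without new protein synthesis and whose transcripts are short-lived. In kidney cells, hyperosmotic medium is known as a trigger of the p38, JNK and ERK kinases that act upstream of AP-1.

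The upstream sequences of Fosb, Junb, Atf3 and Fos, the members whose transcripts fell most with SFN, are shown. All 4 hold TGACG, the core of the cAMP response element (CRE) that CREB and ATF proteins bind. Jund and Fosl2, which were also called lower with SFN by smaller folds, hold no TGACG in this window. The 4 were chosen by the size of their fall, and the Jund window ends away from its annotated gene start. A link between TGACG and the fall was not tested. Jun is shown beside the 4 as the member with the flattest profile. Each run is the 250 bases before the start site in RefSeq on GRCm38.p6, 5′ to 3′ on the gene's strand. Capitals mark TGACG or its reverse complement CGTCA, the TATA box TATAAA, and in Jun the sequence TGACATCA, known as a site that Jun-ATF dimers bind.
Fos, chr12:85473640-85473889, plus strand: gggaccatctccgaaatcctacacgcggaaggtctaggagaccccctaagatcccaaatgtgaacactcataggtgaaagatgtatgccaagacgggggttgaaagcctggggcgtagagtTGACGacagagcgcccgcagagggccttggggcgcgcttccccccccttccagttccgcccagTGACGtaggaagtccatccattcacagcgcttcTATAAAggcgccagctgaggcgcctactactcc
Fosb, chr7:19310046-19310295, minus strand: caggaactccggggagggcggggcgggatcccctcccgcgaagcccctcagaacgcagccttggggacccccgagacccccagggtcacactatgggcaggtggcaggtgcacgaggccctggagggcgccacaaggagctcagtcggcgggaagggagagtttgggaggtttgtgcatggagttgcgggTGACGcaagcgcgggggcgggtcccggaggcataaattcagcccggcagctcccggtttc
Junb, chr8:84978749-84978998, minus strand: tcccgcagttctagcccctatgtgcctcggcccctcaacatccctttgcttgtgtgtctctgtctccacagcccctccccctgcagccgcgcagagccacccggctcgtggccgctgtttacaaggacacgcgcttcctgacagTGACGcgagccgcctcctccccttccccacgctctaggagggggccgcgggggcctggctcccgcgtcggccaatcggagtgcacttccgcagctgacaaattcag
Atf3, chr1:191183334-191183583, minus strand: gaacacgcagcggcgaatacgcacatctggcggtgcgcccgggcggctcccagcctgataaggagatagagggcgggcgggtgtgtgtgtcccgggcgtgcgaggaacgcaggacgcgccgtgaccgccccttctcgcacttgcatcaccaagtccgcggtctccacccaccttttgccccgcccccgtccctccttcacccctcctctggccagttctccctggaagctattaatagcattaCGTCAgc
Jun, chr4:95052223-95052472, minus strand: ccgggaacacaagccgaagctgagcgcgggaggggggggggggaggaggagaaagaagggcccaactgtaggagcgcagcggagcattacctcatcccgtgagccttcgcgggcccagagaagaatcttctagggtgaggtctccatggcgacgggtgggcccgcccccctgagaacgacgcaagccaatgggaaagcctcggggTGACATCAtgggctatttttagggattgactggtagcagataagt

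Upstream sequences were found for 7 of the 8 members, Fosl1 being the exception. The Atf3 and Fosl2 sequences lie within the genes as GENCODE M21 draws them, and the Jund sequence ends at 70697738 on chromosome 8, before the annotated gene start at 70698949. GC content was 58.4% to 68.8% in 6 of the 7 and 47.6% in Jund. TGACG was searched on both strands and was present in 4 of the 7, against 17.8% of 32851 upstream sequences of the same length and 26.7% of those with a GC content of 58% to 69%. In Fos its first base lay 129 and 66 bases before the start, in Fosb 60, in Junb 106 and in Atf3 7. TGACATCA was in 1 of the 7, 45 bases before the Jun start, against 2.93% of all and 1.15% of those in the GC range. TATAAA was in 1 of the 7, 33 bases before the Fos start, against 12.4% and 3.67%. GGGCGG, the GC box that Sp1 binds, was in 5 of the 7, against 32.7% of all but 64.8% in the GC range, which is near the members' share. None of the 7 held the AP-1 site TGANTCA (6.75% of all and 3.86% in the GC range), the full CRE TGACGTCA (1.55% and 2.84%), TGGAAA from the core of the tonicity-responsive element (18.6% and 11.7%), TGACNNNGC from the antioxidant response element of Nrf2 (10.2% and 12.9%) or a CArG box (1.47% and 1.2%). The full CRE contains TGACG, and TGACNNNGC can overlap it. TGACATCA was added to the search after the sequences were seen, and a match describes letters, not binding.

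The labels were checked against named genes. Nfe2l2, which encodes Nrf2, stood at group means of 66.6 to 147 CPM (counts relative to library size after TMM scaling) in WT cells, and at 11.4 and 11.1 in Nrf2-/- cells. Nqo1, an Nrf2 target, rose from 2.70 to 7.28 CPM with SFN in isosmotic WT cells and was at 0 and 0.185 in the Nrf2-/- groups. Slc7a11, a cystine transporter under both Nrf2 and Atf4, was not low in Nrf2-/- cells, at 70.6 and 76.2 CPM against 39.4 in isosmotic WT cells with SFN. Epithelial markers were abundant, with Krt8 at 693 to 1053 CPM and Cdh1 at 143 to 443. Aqp2, the water channel that defines the principal cell, did not exceed 0.317 CPM in any group, and Aqp4, Avpr2, Scnn1b and Scnn1g failed the filter on low counts.

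The 2 libraries of Nrf2-/- cells at 1 h of HS stood apart. Their coefficient of variation was 0.348, against 0.0395 to 0.128 in the 7 other groups. Because all groups share 1 estimate of spread, the number of members called is also given without these libraries, a choice made after seeing the data. That fit called more of all genes too, and each of its counts is given with its own share of all genes.

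Seen per kilobase (kb) of annotated exon, Junb and Jund were the most abundant members in isosmotic DMSO cells. Junb, which often restrains proliferation, stood at 229 ± 5.28 CPM per kb (SD, n = 2) and made up 49.6% of the summed level of the 8 members, 461 CPM per kb. Jund, the steadily expressed Jun protein, made up 26.7%. Fos and Fosb, the prototypes of fast induction, made up 1.57% and 0.399%. With SFN the sum was 215 CPM per kb under isosmotic conditions, and Jund and Junb were level at 32.3% and 32.0%. At 1 h of HS the sum was 209 with DMSO and 208 with SFN, and Jund led with 40.0% and 34.6%. At 6 h it was 475 with DMSO and 537 with SFN, Junb held 40.3% and 43.3%, and Fosl2 held 26.8% and 26.1%. In Nrf2-/- cells the sum was 225 under isosmotic conditions and 199 at 1 h. In bulk RNA, fewer cells of a kind and less RNA per cell cannot be told apart.

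**Figure D1:**
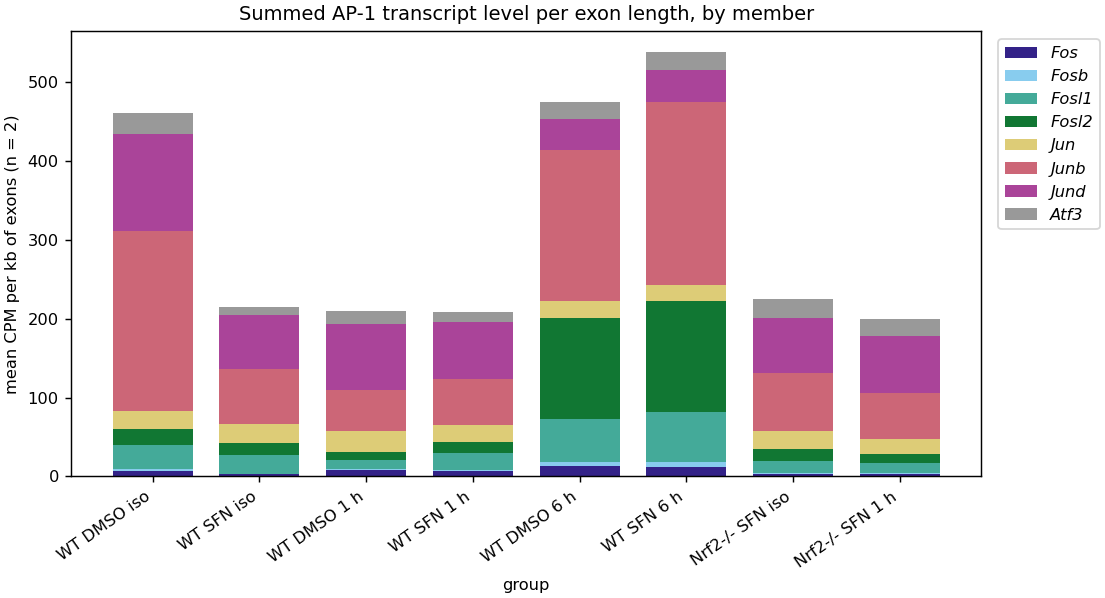
Stacked bars of the mean CPM per kb of exons (n = 2 libraries) of the 8 members in each of the 8 groups, from 0. The sum was 461 in isosmotic DMSO cells, 199 to 225 in the other isosmotic groups and at 1 h, and 475 and 537 at 6 h, where Fosl2 took 26.8% and 26.1%.

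The first comparison was SFN against DMSO in WT cells at each osmotic condition. Under isosmotic conditions SFN lowered 6 of the 8 members and raised none, where 2.84% of the 19509 genes were called in either direction. A call is a Benjamini-Hochberg adjusted p under 0.05 over all genes from the quasi-likelihood test of edgeR. The median log2 change was -1.09 over the members and 0 over all genes tested. Fosb fell most, 4.67-fold, followed by Junb (3.33-fold), Atf3 (2.81-fold), Fos (2.57-fold), Jund (1.77-fold) and Fosl2 (1.38-fold). Jun was the 1 member whose SFN libraries were both above the DMSO libraries, a difference that was not called.

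Fosb, a Fos protein with a strong activation domain, stood at 12.8 and 10.2 CPM in the isosmotic DMSO libraries and at 1.93 and 2.93 with SFN. Its log2 change was -2.22 ± 0.20 (SE, edgeR adjusted p = 1.81e-05). Junb stood at 517 and 534 CPM with DMSO and at 171 and 145 with SFN, a log2 change of -1.73 ± 0.14 (edgeR adjusted p = 6.98e-06). In both genes the lower DMSO library was over 3 times the higher SFN library.

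Atf3, a stress-induced factor that often represses its targets, stood at 61.0 and 56.0 CPM with DMSO and at 21.9 and 19.8 with SFN. Its log2 change was -1.49 ± 0.16 (edgeR adjusted p = 7.57e-05). Fos stood at 15.8 and 18.2 CPM with DMSO and at 5.85 and 7.38 with SFN, a log2 change of -1.36 ± 0.23 (edgeR adjusted p = 0.00345). Both genes had separate groups, and the Fos call was lost when the first SFN library was left out.

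Jund stood at 187 and 223 CPM with DMSO and at 133 and 98.6 with SFN, a log2 change of -0.82 ± 0.14 (edgeR adjusted p = 0.00331). That call was lost without the second DMSO library or without the second SFN library. Fosl2, a Fos protein without a strong activation domain, moved from 221 and 187 to 148 and 147 CPM, and its adjusted p of 0.0441 (edgeR, log2 change -0.47 ± 0.12) passed 0.05 narrowly. It was lost in 17 of 25 alternatives, among them RLE scaling, a stricter filter (at least 10 counts in each library), the replicate block and 14 of the 16 fits that left out a library, including each of the 4 libraries compared. Fosl1 and Jun did not pass, with log2 changes of -0.35 ± 0.17 (edgeR adjusted p = 0.365) and 0.17 ± 0.11 (edgeR adjusted p = 0.496). Without the Nrf2-/- 1 h libraries, 7 members were called, the 6 above and Fosl1, where 14.5% of all genes were called in that fit.

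At 1 h of HS, none of the 8 members was called between SFN and DMSO, where 0.0923% of all genes were called by edgeR. An unadjusted edgeR p under 0.05 was reached by 3 of the 8, and by 669 of the 19509 genes tested. Fosl1, a Fos protein tied to migration and invasion, stood at 24.3 and 23.8 CPM with DMSO and at 46.1 and 43.9 with SFN, a log2 difference of 0.91 ± 0.18 (edgeR adjusted p = 0.112). Without the Nrf2-/- 1 h libraries, 2 members were called, Fosl1 (edgeR adjusted p = 9.85e-07) and Fosl2 (edgeR adjusted p = 0.00813), both higher with SFN, where 0.479% of all genes were called. DESeq2 called 1 (0.362% of all genes), and a fit on the 4 libraries compared called 6 (4.95% of all genes), of which 3 were higher and 3 lower with SFN. At 6 h, none of the 8 was called, where 0.041% of all genes were called by edgeR. None had an unadjusted edgeR p under 0.05 there, which 718 of the 19509 genes reached. DESeq2 called none of the 8 there either.

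**Figure D2:**
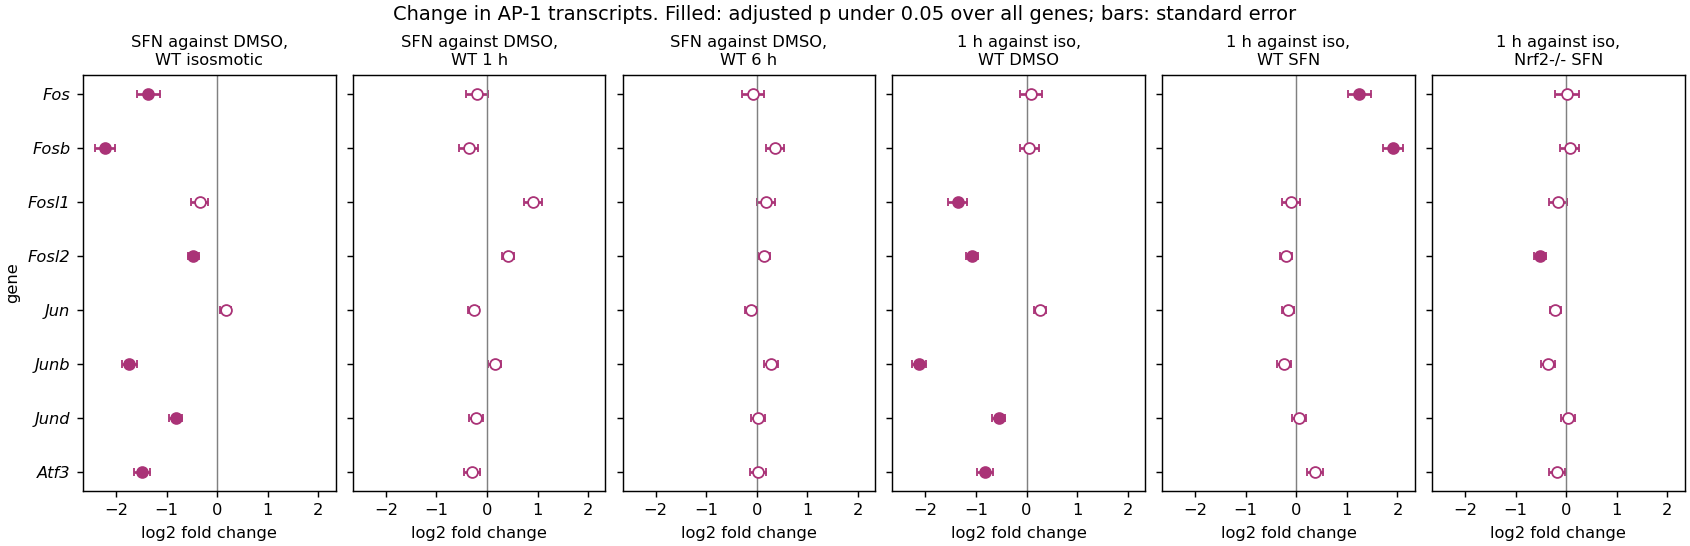
Log2 fold change (x axis) and standard error of the 8 members in 6 comparisons, with filled points for an edgeR adjusted p under 0.05. Filled points stand left of 0 for 6 members with SFN under isosmotic conditions and for 5 members at 1 h of HS with DMSO, and right of 0 for Fos and Fosb at 1 h with SFN.

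The second comparison was HS against isosmotic conditions in WT cells with DMSO. It shares the isosmotic DMSO libraries with the comparison above, so a high or low value in them moves both in the same direction. In WT cells the labels name 1 isosmotic group per treatment, which served for both 1 h and 6 h of HS. Elapsed time and any change of medium can therefore not be told apart from HS. At 1 h, 5 of the 8 members were lower and none higher, where 11.2% of all genes were called. The 2 largest falls were in Junb, 4.37-fold, and Fosl1, 2.57-fold. At 6 h, 4 were higher and 1 lower, where 45.9% of all genes were called, and Fosl2 rose 6.03-fold.

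Junb stood at 118 and 123 CPM at 1 h, against 517 and 534 before, and at 461 and 419 at 6 h. Its log2 change at 1 h was -2.13 ± 0.14 (edgeR adjusted p = 4.73e-07) and at 6 h -0.26 ± 0.14 (edgeR adjusted p = 0.142). From 1 h to 6 h it rose by 1.87 ± 0.14 on the log2 scale (edgeR adjusted p = 1.21e-07). The 1 h libraries lay far below both other groups.

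Fosl2 stood at 90.3 and 102 CPM at 1 h, against 221 and 187 before, and at 1302 and 1159.5 at 6 h. Its log2 change was -1.08 ± 0.12 at 1 h (edgeR adjusted p = 3.83e-05) and 2.59 ± 0.12 at 6 h (edgeR adjusted p = 1.64e-09). Fosl1 followed the same course, with 24.3 and 23.8 CPM at 1 h, 61.5 and 62.2 before, and 117 and 109 at 6 h. Its log2 change was -1.36 ± 0.18 at 1 h (edgeR adjusted p = 0.000195) and 0.87 ± 0.18 at 6 h (edgeR adjusted p = 0.00095). For both Fos-related genes, the 3 time points did not overlap.

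Fos and Fosb did not move at 1 h beyond the spread, with log2 changes of 0.08 ± 0.22 (edgeR adjusted p = 0.874) and 0.05 ± 0.18 (edgeR adjusted p = 0.91). At 6 h Fos stood at 29.6 and 31.8 CPM, a log2 change of 0.85 ± 0.22 (edgeR adjusted p = 0.00512), a call lost without the first isosmotic DMSO library. Fosb stood at 31.4 and 27.6 CPM at 6 h, a log2 change of 1.36 ± 0.18 (edgeR adjusted p = 3.32e-05). The 1 h libraries overlapped the isosmotic ones in both genes, and the 6 h libraries stood above them.

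Atf3 stood at 33.7 and 32.7 CPM at 1 h, a log2 change of -0.82 ± 0.16 (edgeR adjusted p = 0.00383), and at 51.7 and 40.3 CPM at 6 h (log2 change -0.35 ± 0.16, edgeR adjusted p = 0.0862). Jund fell in steps, to 141 and 138 CPM at 1 h and to 64.3 and 69.1 at 6 h. Its log2 change was -0.55 ± 0.14 at 1 h (edgeR adjusted p = 0.0164) and -1.62 ± 0.14 at 6 h (edgeR adjusted p = 4.66e-07). The 1 h call of Jund was lost with the stricter filter, without the second isosmotic DMSO library or without either 1 h library. Jun, the founding member of the family, stayed between 65.9 and 88.4 CPM in these 6 libraries and was not called. Between 1 h and 6 h, 6 members rose and Jund fell, where 42.4% of all genes were called, and scaling to total counts gave 4 higher and 2 lower (46.7% of all genes). Junb and Atf3 also fell below the isosmotic level at 6 h by edgeR after scaling to total counts, which moved the median log2 change of all genes at 6 h from 0.05 to -0.12 and gave 4 higher and 3 lower (49.3% of all genes). Without the Nrf2-/- 1 h libraries the counts were 6 at 1 h, with Jun higher, and 7 at 6 h, where 22.1% and 56.7% of all genes were called.

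With SFN, 2 of the 8 members rose at 1 h and none fell against isosmotic SFN cells, where 9.52% of all genes were called. Fosb rose from 1.93 and 2.93 to 9.18 and 9.34 CPM (log2 change 1.91 ± 0.20, edgeR adjusted p = 4.51e-05). Fos rose from 5.85 and 7.38 to 14.9 and 16.5 CPM (log2 change 1.24 ± 0.23, edgeR adjusted p = 0.00295). Without the Nrf2-/- 1 h libraries 4 members were called, with Atf3 higher and Junb lower, where 17.5% of all genes were called. At 6 h all 8 members were called, 6 higher and 2 lower, where 47.6% of all genes were called.

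At 6 h with SFN, Fosb reached 37.9 and 38.2 CPM, 15.5-fold above isosmotic SFN cells (log2 change 3.95 ± 0.21, edgeR adjusted p = 3.63e-09). Fosl2 reached 1372 and 1343 CPM, a 9.22-fold rise (log2 change 3.20 ± 0.13, edgeR adjusted p = 2.1e-10). Junb reached 493 and 578 CPM, a 3.39-fold rise (log2 change 1.76 ± 0.14, edgeR adjusted p = 1.94e-07). In all 3 genes the isosmotic SFN mean was below the isosmotic DMSO mean, while no difference between SFN and DMSO was called at 6 h. Fos rose 4.40-fold, Fosl1 2.64-fold and Atf3 2.24-fold, while Jund fell 1.70-fold. Jun fell by 0.29 on the log2 scale (edgeR adjusted p = 0.0473), a call that was lost in 17 of 25 alternatives, among them RLE scaling, no filter on low counts, DESeq2, and leaving out any 1 library of the isosmotic SFN, 1 h DMSO, 1 h SFN, 6 h or isosmotic Nrf2-/- groups.

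The difference between the HS changes with SFN and with DMSO was tested as an interaction. For 1 h, 5 of the 8 members had a higher change with SFN, where 0.559% of all genes were called. For 6 h, 3 of the 8 did, where 0.759% were called. A higher change can be a smaller fall. With SFN the 1 h log2 changes of Junb, Fosl1, Fosl2 and Atf3 were -0.25, -0.11, -0.20 and 0.38, none of them called. With DMSO they were -2.13, -1.36, -1.08 and -0.82, all called. Fosb was the 1 of the 5 with a called rise with SFN at 1 h. Junb differed by 1.88 ± 0.19 at 1 h (edgeR adjusted p = 0.000316) and by 2.02 ± 0.19 at 6 h (edgeR adjusted p = 9.1e-05). Fosb differed by 1.86 ± 0.27 (edgeR adjusted p = 0.00433) and 2.59 ± 0.27 (edgeR adjusted p = 0.000169). Atf3 differed by 1.19 ± 0.22 (edgeR adjusted p = 0.0272) and 1.51 ± 0.22 (edgeR adjusted p = 0.0031).

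At 1 h Fosl1 and Fosl2 also differed, by 1.25 ± 0.25 (edgeR adjusted p = 0.0369) and 0.88 ± 0.16 (edgeR adjusted p = 0.0248). The 1 h calls of Fosl1, Fosl2 and Atf3 were lost in 13, 9 and 10 of the 16 fits that left out a library, where the number of members called ranged from 2 to 7 and the share of all genes from 0.226% to 2.76%. Fosl1 and Atf3 also lost theirs with total count scaling, which gave 3 members (0.446% of all genes), and Fosl2 with RLE scaling. Fos, which rose at 1 h with SFN, did not pass the test of the difference, at 1.16 ± 0.31 for 1 h (edgeR adjusted p = 0.183) and 1.29 ± 0.31 for 6 h (edgeR adjusted p = 0.0929). Without the Nrf2-/- 1 h libraries, 7 members were called at 1 h (6 higher, 1 lower) and 7 at 6 h, where 3.03% and 3.96% of all genes were called. Both interactions hold the isosmotic DMSO and the isosmotic SFN libraries, and so share libraries with each comparison against those groups.

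**Figure D3:**
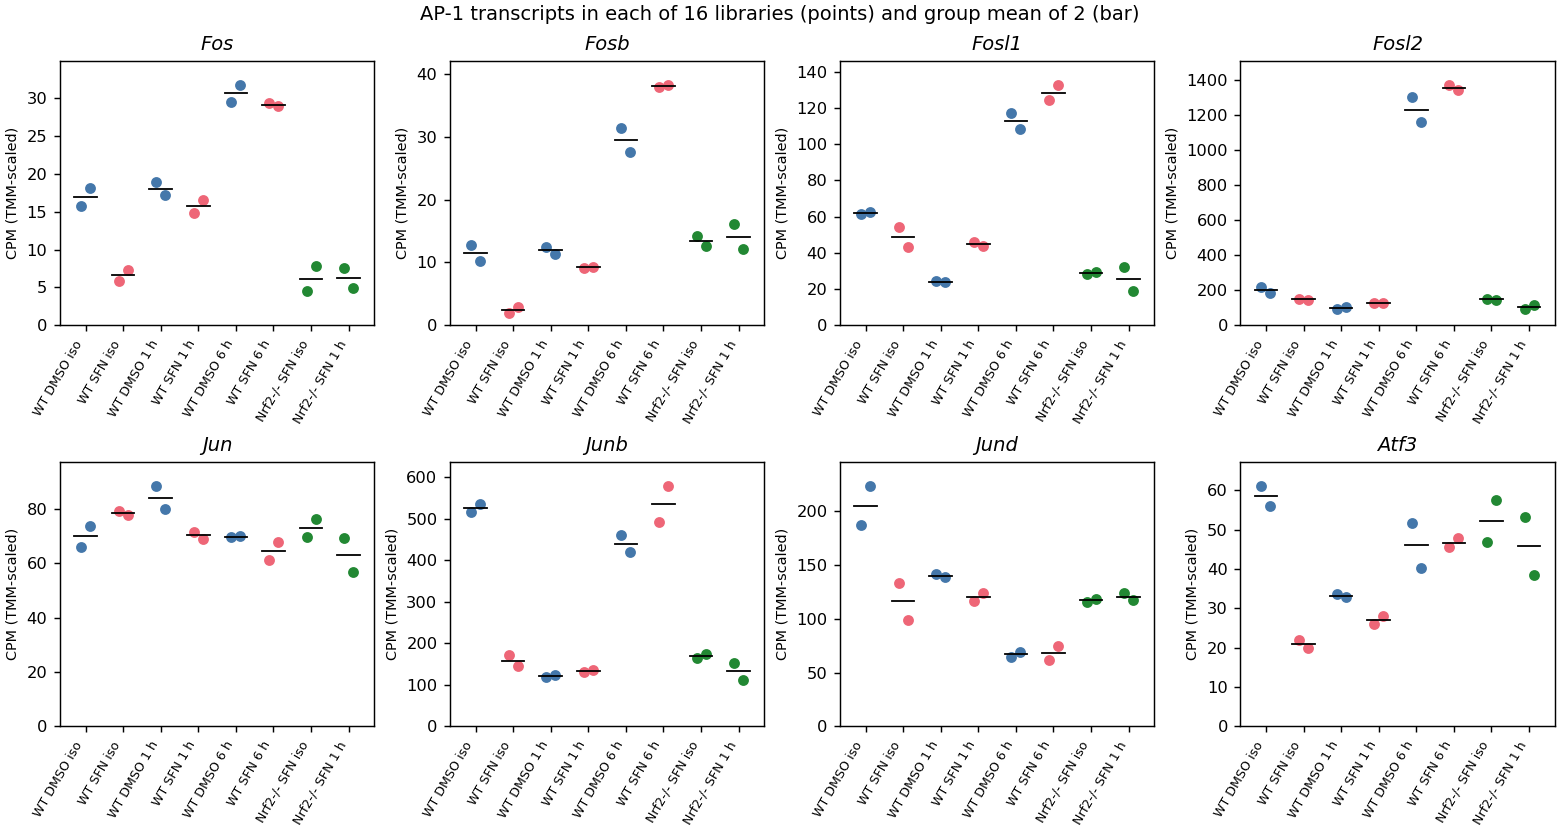
TMM-scaled CPM (y axis, from 0) of each member in each of the 16 libraries (points) with the group mean of 2 (bar), in blue for DMSO, red for SFN and green for Nrf2-/- cells. Junb stands at 517 and 534 in isosmotic DMSO cells and at 112 to 173 in the other isosmotic libraries and at 1 h, and Fosl2 stands at 1159.5 or more in the 6 h libraries and at 221 or less in all others.

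In the order of group means, Junb was highest at 6 h with SFN (536 ± 60.5 CPM, SD, n = 2) and in isosmotic DMSO cells (526 ± 12.1), which overlapped, followed by 6 h with DMSO (440.2 ± 30.0). Its other 5 groups lay between 120.2 and 169.6 CPM. Fosb was lowest in isosmotic SFN cells (2.43 ± 0.705), and in 4 groups between 11.5 and 14.1 CPM, isosmotic and 1 h DMSO and both Nrf2-/- groups, the SD ranges of neighbours overlapped. Fos was low in isosmotic SFN cells (6.61 ± 1.08) and in both Nrf2-/- groups (6.18 ± 2.31 and 6.25 ± 1.82), which did not differ beyond their spread. Jund was highest in isosmotic DMSO cells (205 ± 25.5) and lowest at 6 h (66.7 ± 3.40 and 68.2 ± 8.93), the latter overlapping. Jun ranged from 63.0 ± 8.89 to 84.2 ± 5.90 CPM over all 8 groups.

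Nrf2-/- cells were then compared with WT cells under SFN. Under isosmotic conditions 2 members were higher and 1 lower, where 34.1% of all genes were called, so the members were called about as often as genes at large. Fosb stood at 14.3 and 12.5 CPM in Nrf2-/- cells, 5.45-fold above the 1.93 and 2.93 of WT cells (log2 difference 2.45 ± 0.20, edgeR adjusted p = 3.32e-07). Atf3 stood at 46.7 and 57.4 CPM against 21.9 and 19.8 (log2 difference 1.32 ± 0.16, edgeR adjusted p = 1.52e-05). These 2 genes stood near their levels in WT cells with DMSO, 11.5 and 58.5 CPM, a comparison in which genotype and treatment both differ.

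Fosl1 was lower in Nrf2-/- cells, at 28.5 and 29.3 against 54.4 and 43.0 CPM (log2 difference -0.75 ± 0.18, edgeR adjusted p = 0.00419). That call was lost without the first WT library. Junb, at 166 and 173 CPM, and Fos, at 4.55 and 7.82 CPM, did not differ from WT cells with SFN, with log2 differences of 0.10 ± 0.14 (edgeR adjusted p = 0.624) and -0.10 ± 0.23 (edgeR adjusted p = 0.802).

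At 1 h, 2 members were higher and 2 lower in Nrf2-/- cells, where 31.5% of all genes were called. Fos stood at 7.53 and 4.96 CPM against 14.9 and 16.5 in WT cells (log2 difference -1.33 ± 0.23, edgeR adjusted p = 0.000421). Fosl1 stood at 32.3 and 19.1 against 46.1 and 43.9 CPM (log2 difference -0.81 ± 0.18, edgeR adjusted p = 0.00293), Atf3 at 53.3 and 38.4 against 26.0 and 28.0 (0.76 ± 0.16, edgeR adjusted p = 0.00192) and Fosb at 16.1 and 12.1 against 9.18 and 9.34 (0.61 ± 0.19, edgeR adjusted p = 0.0224). In a fit on the 4 libraries compared, Fos alone of these was called (10.1% of all genes), and scaling to total counts gave 1 higher and 3 lower (32.0% of all genes). The Fosb call was also lost without either WT library or the first Nrf2-/- library.

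Within Nrf2-/- cells, 1 h of HS lowered 1 member, Fosl2, where 7.17% of all genes were called. It stood at 150.0 and 145 CPM before and at 93.1 and 114 at 1 h (log2 change -0.51 ± 0.12, edgeR adjusted p = 0.0156), a call lost with the stricter filter, without either isosmotic library and in the fit on the 4 libraries compared. Fosb did not move (log2 change 0.07 ± 0.18, edgeR adjusted p = 0.892), and its 1 h change was lower than that of WT cells with SFN by 1.84 ± 0.27 on the log2 scale (edgeR adjusted p = 0.0155), in a test where 0.123% of all genes were called. The difference was not called in the fit on the libraries compared or without 1 of 4 libraries (the first of WT isosmotic, either of WT 1 h, or the first of Nrf2-/- isosmotic). Without the first Nrf2-/- 1 h library, 5 of 8 members were called for the change within Nrf2-/- cells and 4 of 8 for the difference from WT cells, in a fit that called 23.9% and 9.75% of all genes.

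Lists of genes around AP-1 were read in the same fit, each leaving out the members themselves. They were chosen with earlier results of these data known, so their counts are a description and not an independent test. The immediate-early list held Egr, Nr4a, Klf and Ier genes and other fast-responding genes, of which 22 of 23 were tested. With SFN under isosmotic conditions, 15 of the 22 fell and none rose, where 2.84% of all genes were called, with a median log2 change of -0.87 against 0 for all genes. Arc, a gene known from neuronal activity, fell from 62.1 ± 3.75 to 13.9 ± 1.56 CPM (log2 change -2.16 ± 0.11, edgeR adjusted p = 2.11e-07). Btg2, an antiproliferative gene, fell by 1.78 on the log2 scale (edgeR adjusted p = 2.15e-05), and Egr2, a zinc-finger factor, fell by 2.53 (edgeR adjusted p = 0.000506). In the fit that left out the Nrf2-/- 1 h libraries, 19 of the 22 fell, where 14.5% of all genes were called.

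At 1 h of HS with DMSO, 12 of the 22 immediate-early genes fell and 2 rose, Klf4 and Nr4a2, where 11.2% of all genes were called. At 6 h, 10 rose and 9 fell, where 45.9% of all genes were called, with Nr4a2 at a log2 change of 3.50, Ier3 at 2.97, Klf4 at 2.73 and Arc at 2.28 against Ctgf at -2.05 and Btg2 at -1.78. None was called between SFN and DMSO at 1 h or 6 h. The difference in HS change between SFN and DMSO was called in 10 of the 22 at 1 h and 12 of the 22 at 6 h, all higher with SFN, where 0.559% and 0.759% of all genes were called. At 1 h this number was 6 with total count scaling (0.446% of all genes), and without the Nrf2-/- 1 h libraries the numbers were 18 and 19 (3.03% and 3.96% of all genes). In Nrf2-/- cells 8 were higher and 2 lower under isosmotic conditions, and 3 were higher and 4 lower at 1 h. In these comparisons 34.1% and 31.5% of all genes were called, and the 7 of 22 at 1 h are near that share. Total count scaling gave 3 higher and 7 lower at 1 h, in a fit that called 32% of all genes.

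The list of genes known as AP-1 targets held 27, of which 24 were tested. With SFN under isosmotic conditions, 6 fell and 1, Il11, rose, where 2.84% of all genes were called, and without the Nrf2-/- 1 h libraries 11 fell and 2 rose, where 14.5% were called. The cytokine Lif stood at 169 ± 4.59 and 50.9 ± 2.47 CPM with DMSO and SFN (log2 change -1.73 ± 0.14, edgeR adjusted p = 6.15e-06). Hbegf, an EGF-receptor ligand, fell by 1.11 on the log2 scale (edgeR adjusted p = 4.93e-05), and Ptgs2, the inducible cyclooxygenase, fell by 1.02 (edgeR adjusted p = 0.000211).

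At 1 h of HS with DMSO, 8 AP-1 target genes fell and 2 rose, where 11.2% of all genes were called. The median log2 change of the list was -0.20, against 0.00 for all genes. Against that direction and at few counts, Il6 rose from 0 counts in both isosmotic DMSO libraries to 45 and 37. The collagenase Mmp13 went from 4 and 0 counts to 13 and 18. At 6 h, 13 rose and 5 fell, where 45.9% were called. Ptgs2 rose from 325 ± 26.6 to 1815 ± 33.2 CPM (log2 change 2.48 ± 0.13, edgeR adjusted p = 3.32e-09), and Mmp13 reached 291 and 313 counts. With SFN, 4 rose and 1 fell at 1 h, and 18 rose and 2 fell at 6 h, where 9.52% and 47.6% were called. None was called between SFN and DMSO at 1 h or 6 h. The HS change was higher with SFN than with DMSO in 7 at 1 h and 5 at 6 h, and lower in none. For these differences 0.559% and 0.759% of all genes were called. In Nrf2-/- cells with SFN 9 were higher and 6 lower than in WT cells under isosmotic conditions, and 9 higher and 5 lower at 1 h, where 34.1% and 31.5% of all genes were called. The chemokine Ccl2 had 0 counts in all 4 Nrf2-/- libraries and 950 or more in each WT library.

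**Figure D4:**
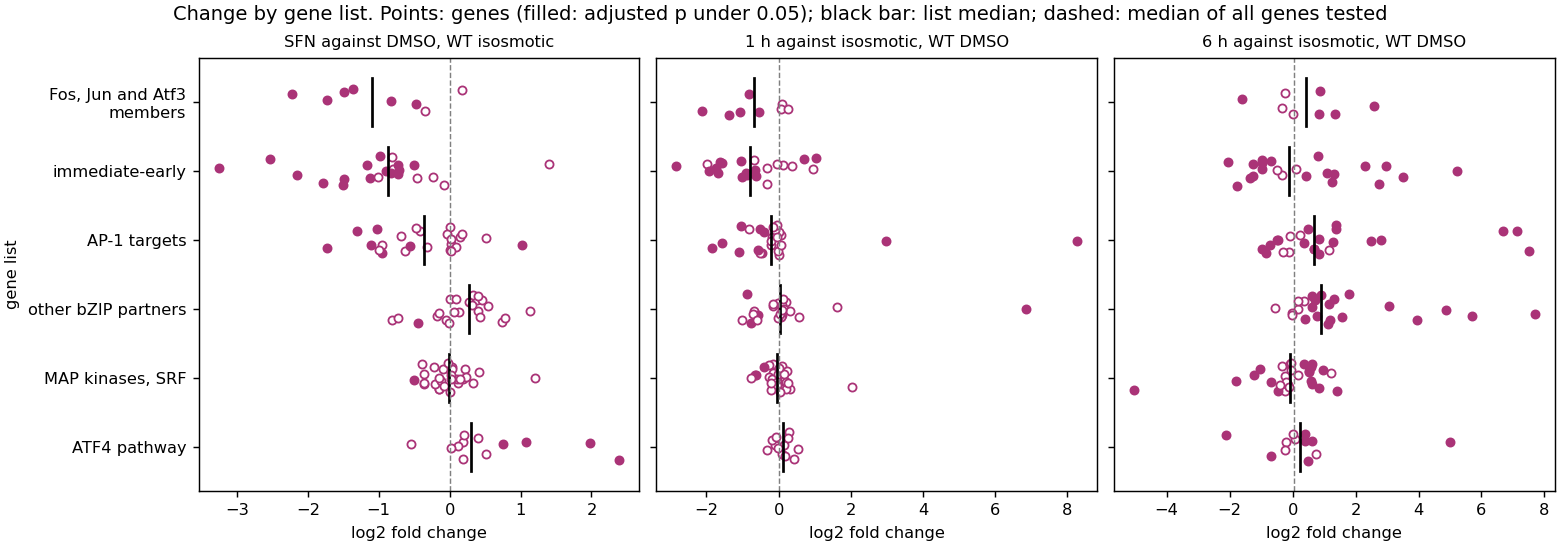
Log2 fold change (x axis) of each tested gene of the members and 5 gene lists (rows) in 3 comparisons, with filled points for an edgeR adjusted p under 0.05, a black bar at the list median and a dashed line at the median of all genes. With SFN the medians were -1.09 for the members and -0.87 for the immediate-early genes, and at 6 h of HS the median was 0.89 for the other bZIP partners.

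The list of other bZIP proteins, which can pair with Fos and Jun or compete for their sites, held 25 genes, of which 23 were tested. SFN lowered 1, Mafk, under isosmotic conditions, near the 2.84% of all genes called. The Mafk call was lost with RLE or total count scaling, and without the Nrf2-/- 1 h libraries 2 were lower and 6 higher, where 14.5% of all genes were called. At 1 h of HS with DMSO, 3 fell, Mafk, Mafg and Bach1, and 1 rose, Batf, from 0 counts in both libraries to 22 and 9, where 11.2% of all genes were called. At 6 h, 17 of 23 rose and none fell, where 45.9% were called, with a median log2 change of 0.89 against 0.05 for all genes. Mafk at 1.78 and Cebpb at 1.15 were among the more abundant of these. Total count scaling gave 14 higher and 1 lower at 6 h, in a fit that called 49.3% of all genes. In Nrf2-/- cells 4 were higher and 8 lower under isosmotic conditions, and 4 higher and 7 lower at 1 h, where 34.1% and 31.5% of all genes were called.

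The list of MAP kinases and serum response regulators was tested in full, at 29 genes. SFN lowered 1 under isosmotic conditions, near the 2.84% of all genes called, namely Srf, the serum response factor that drives Fos and Egr1, from 135 ± 6.01 to 95.3 ± 1.99 CPM (log2 change -0.50 ± 0.11, edgeR adjusted p = 0.0216). HS with DMSO lowered 3 at 1 h, Elk4, Map2k3 and Srf, and at 6 h raised 10 and lowered 6. In these comparisons 11.2% and 45.9% of all genes were called, and the 3 of 29 at 1 h are near that share. The 6 h split was 7 higher and 13 lower with total count scaling, and 10 and 11 without the Nrf2-/- 1 h libraries, in fits that called 49.3% and 56.7% of all genes. In Nrf2-/- cells 11 were higher and 6 lower under isosmotic conditions, and 12 higher and 4 lower at 1 h, where 34.1% and 31.5% of all genes were called. Kinase activity is not read from transcript levels.

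Genes under Atf4, a bZIP factor that drives Atf3 in the integrated stress response, were tested beside it. Of 12 tested, 4 rose with SFN under isosmotic conditions and none fell, where 2.84% of all genes were called, namely Slc7a11, Chac1, Sesn2 and Trib3, with log2 changes of 2.39, 1.98, 1.08 and 0.76. Slc7a11 was also higher with SFN at 1 h (log2 difference 2.33 ± 0.27, edgeR adjusted p = 0.00129). None was called at 1 h of HS with DMSO, and 5 rose and 2 fell at 6 h, where 11.2% and 45.9% of all genes were called. Total count scaling gave 3 and 3 at 6 h with DMSO, in a fit that called 49.3% of all genes. With SFN, 2 fell at 1 h, and at 6 h 4 rose and 6 fell, where 9.52% and 47.6% of all genes were called. The median log2 change at 6 h with SFN was -0.48 against 0.09 for all genes. There, RLE scaling gave 5 and 5 (46.9% of all genes) and total count scaling 2 and 7 (51.3% of all genes). The difference between the 6 h changes with SFN and DMSO was called in 2, both lower with SFN, where 0.759% were called. In Nrf2-/- cells 7 were higher under isosmotic conditions and 8 at 1 h, with none lower, where 34.1% and 31.5% of all genes were called.

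Other cell types were looked for through their markers. Intercalated-cell markers summed to at most 1.12 CPM in any library and the 5 fibroblast markers to at most 7.50. The 3 leukocyte markers summed to 1.93 to 7.39 CPM before 6 h and to 6.89 to 10.7 at 6 h, and the 3 endothelial markers to at most 0.878 and to 3.999 to 5.36. Ptprc, the leukocyte antigen, rose from 0.114 CPM in isosmotic DMSO cells to 4.88 at 6 h, and Adgre1, a macrophage marker, was at 0 in all 12 libraries other than those at 6 h. The endothelial Pecam1 rose from 0.0442 to 3.31 CPM. Of 13 tested collecting duct and epithelium markers, 3 were lower and none higher with SFN under isosmotic conditions, where 2.84% of all genes were called. The 17 listed markers summed to 2520 and 2805 CPM in the isosmotic DMSO libraries and to 2116 and 1988 with SFN. Of the 13 tested, 6 were higher and 1 lower at 6 h of HS with DMSO, where 45.9% of all genes were called. In isosmotic Nrf2-/- cells 3 were higher and 5 lower than in WT cells with SFN, where 34.1% were called. The kidney factor Pax2, on that list, rose from 119 to 1141 CPM at 6 h. It was at 26.9 in isosmotic Nrf2-/- cells, which had SFN. Lrp2, a proximal tubule gene, was at 6.22 CPM in isosmotic DMSO cells and 0.169 in isosmotic Nrf2-/- cells. Between DMSO cells and Nrf2-/- cells, treatment and genotype both differ. The part of these differences in the AP-1 values was not tested.

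The genes with profiles most like each member were named by Pearson's r of log2 CPM over the 16 libraries, among 12283 genes with a mean of at least 50 counts. The libraries fall into 8 groups, so r describes group differences and carries no p. Fosl2 was matched most closely, by Irf2bpl, Rbm15 and Foxc1 at 0.99. Fos was most like Pttg1ip (0.97), Fosb like Pmaip1 (0.97), Fosl1 like Map2k3 (0.97), Jund like H3f3b (0.97) and Junb like Klhl21 (0.96). Atf3 was most like Dusp10 (0.92), and Jun, with the narrowest range, like Mtif3 at 0.82. Among the members, Fosl1 and Fosl2 were the pair most alike (0.91), then Fosl1 and Junb (0.86), and Fosl2 and Jund were the most opposed (-0.77).

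The members Fosl1, Jund, Junb and Jun share exon bases with a gene on the opposite strand in GENCODE M21, and the strand setting of the counting is not given in the sources used here. Fosl1, at chr19:5447547-5455946, shares 57.2% of its exon bases with Ccdc85b, which was also lower in Nrf2-/- cells (log2 difference -0.88, edgeR adjusted p = 0.00841 under isosmotic conditions, and -1.11, edgeR adjusted p = 0.00207 at 1 h). Fosl1 levels are therefore uncertain there, and reads of both genes could not be told apart if strand was not used. Ccdc85b was not called at 1 h or 6 h of HS with DMSO (edgeR adjusted p = 0.397 and 0.644). Jund shares 52.6% with Gm11175, which had 0 counts in all 16 libraries, and Jun 7.28% with Junos, which had at most 40 counts. Junb shares 7.52% with Prdx2, which had 6532 to 10511 counts per library, against 3878 to 24174 for Junb.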

How the data were processed

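The authors aligned reads to mm10, sorted them with SAMtools and counted them per gene symbol with featureCounts, and deposited raw counts for each library, without normalization. The paper names Hisat2 and the submitters' processing notes name Bowtie2 as aligner. Versions, annotation and strand setting are not given in the sources used here. Conditions came from the sample labels, which name mIMCD3 except that 1 protocol text names primary cells. The isosmotic SFN libraries of WT cells are numbered 1 and 2 in their titles, used here, and 2 and 3 in their deposited files. Lines without a gene name, 2 and 3 in 2 libraries, were left out. Depth was 34484296 to 50774875 counts per library. Of the counts from 1 to 10, 58.0% to 68.5% were even, depending on the library. Whether 1 count stands for 1 fragment is not given in the sources used here.

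Analyses used R 4.3.3 with edgeR 4.0.16. After edgeR's filter on low counts and TMM scaling, 1 robust quasi-likelihood fit held all 16 libraries with 1 coefficient for each of 8 groups. SE is the log2 change divided by the square root of F. Adjusted p under 0.05 over 19509 genes was a call. An exact permutation test of 2 against 2 libraries cannot go below p = 0.333. Genes are named if they are members, label checks, on a list, or among the 3 most like a member (r of log2 CPM, prior count 2). Ccdc85b, Gm11175, Prdx2 and Junos were added for their overlap. A list of ubiquitin-ligase genes is not reported here. The members and lists were chosen with earlier results of these data known. Motifs were searched in RefSeq sequences of GRCm38.p6. The code was tested on simulated data.

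Alternatives were RLE and total count scaling, DESeq2 1.42.0, no filter (a total count of at least 1), a minimum of 10 counts in every library, fits on the libraries of each comparison or on the 12 WT libraries, the replicate number as a block, and leaving out each library. A fit without the Nrf2-/- 1 h libraries, and all alternatives for the lists, were added after seeing the data.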

Additional observations from a re-analysis of the deposited data

Results flagged for a closer look

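For 9 results, the change under 1 contrast differed between groups by the test of the difference itself, and no group held enough libraries to look for a single deviating one. The 1 h change was higher with SFN than with DMSO by 1.86 for Fosb, 1.25 for Fosl1, 0.88 for Fosl2, 1.88 for Junb and 1.19 for Atf3 on the log2 scale. For all of these but Fosb, a fall at 1 h was called with DMSO and no change was called with SFN. The 6 h change was higher with SFN by 2.59 for Fosb, 2.02 for Junb and 1.51 for Atf3. The 1 h change of Fosb with SFN differed by -1.84 between Nrf2-/- and WT cells. All 8 differences between SFN and DMSO share the isosmotic DMSO and isosmotic SFN libraries.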

How the results depend on the processing

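No member changed direction as a called value in any of the 25 alternatives. The counts of members called are given here with the share of all genes called in the same fit. Total count scaling gave 3 for the 1 h change, SFN minus DMSO (0.446%). No filter, with 34951 genes tested, gave 1 for SFN at 1 h (0.12%), 6 for the 6 h change, SFN minus DMSO (0.887%), and 2 for the 1 h change, Nrf2-/- minus WT (0.458%), and DESeq2 gave 1 (0.362%), 5 (2.35%) and 2 (0.664%). At least 10 counts in every library gave 0 for HS in Nrf2-/- cells (2.42%). Only the 12 WT libraries, and the fit without the Nrf2-/- 1 h libraries, each gave 4 for 1 h with SFN (18.3% and 17.5%), 2 for SFN at 1 h (0.533% and 0.479%) and 7 for the 6 h change, SFN minus DMSO (4.24% and 3.96%). The latter fit also gave 8 from 1 h to 6 h with DMSO (53.5%) and 8 at 6 h with SFN (58.4%). It gave 0 for SFN at 6 h (0.213%) and 3 for Nrf2-/- against WT under isosmotic conditions (46.4%). Only the libraries compared gave 6 for SFN at 1 h (4.95%), 1 for Nrf2-/- at 1 h (10.1%), 0 for HS in Nrf2-/- cells (0.045%), 5 for the 6 h change, SFN minus DMSO (2.53%), and 0 for the 1 h change, Nrf2-/- minus WT (0%). The cause was not tested.

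Leaving out each library gave 4 to 6 members at 1 h (4.45% to 20.3% of all genes) and 4 to 7 at 6 h with DMSO (31.7% to 52.2%), 5 to 8 from 1 h to 6 h (28.6% to 48.6%), 2 to 4 at 1 h (3.33% to 15.7%) and 7 to 8 at 6 h with SFN (33.0% to 54.2%). For SFN it gave 4 to 7 under isosmotic conditions (0.804% to 13%), 0 to 2 at 1 h (0.0283% to 0.461%) and 0 to 0 at 6 h (0.00473% to 0.231%). It gave 2 to 3 and 3 to 5 for Nrf2-/- against WT under isosmotic conditions (21.1% to 42.3%) and at 1 h (18.6% to 42.0%), and 0 to 5 for HS in Nrf2-/- cells (2.53% to 23.9%). For the 1 h and 6 h change, SFN minus DMSO, it gave 2 to 7 (0.226% to 2.76%) and 3 to 7 (0.325% to 3.6%), and for the 1 h change, Nrf2-/- minus WT, 0 to 4 (0.0377% to 9.75%).

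The replicate block gave 5, 5, 7, 2, 7, 5, 0, 0, 3, 4, 1, 5, 3 and 1 members, in the order of the ranges above, against 5, 5, 7, 2, 8, 6, 0, 0, 3, 4, 1, 5, 3 and 1 without it. The share of all genes called with the block was, in the same order, 9.84%, 44.7%, 40.9%, 8.31%, 46.2%, 2.26%, 0.0666%, 0.0103%, 32.8%, 29.9%, 6.15%, 0.425%, 0.661% and 0.0923%. It was lower with the block in all 14 comparisons, for example 9.84% against 11.2% in the first and 2.26% against 2.84% for SFN under isosmotic conditions. Libraries share only a number: over 28 pairs of groups the correlation of their deviations ran from -0.25 to 0.40. The median log2 change of all genes was -0.12 at 6 h with DMSO, -0.13 at 6 h with SFN, -0.12 for Nrf2-/- at 1 h and -0.22 from 1 h to 6 h with total count scaling, against 0.05, 0.09, -0.02 and 0.00 with TMM. In the fit without the Nrf2-/- 1 h libraries, 1 h of HS with DMSO raised 2 and lowered 5 of the MAP kinase list, raised 1 and lowered 5 of the bZIP list and raised 2 of the Atf4 list, in a fit that called 22.1% of all genes at that comparison. The lowest value of any member was 1.93 CPM, from 72 counts, for Fosb in the first isosmotic SFN library of WT cells.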
